A study of Mus musculus with 68 samples.

Results

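The genes described here are 8 components of the red cell membrane skeleton: Slc4a1, Sptb, Ank1, Epb4.1, Dmtn, Tmod1, Add2 and Mpp1. They were chosen by name as the band 3, spectrin, ankyrin and junctional complex genes listed for the study. The rule uses no measured value, although the set was drawn up with earlier results of these data known. All 8 were found among the 24059 gene symbols of the count tables. RNA was sequenced from erythroid cells sorted from mouse bone marrow. The stage series holds 3 libraries of burst-forming progenitors (BFU-E), 5 of the colony-forming progenitors that follow them (CFU-E), 7 of ERY-I (labelled ProE, the proerythroblast), 4 of ERY-II (BasoE, basophilic), 4 of ERY-III (PolyE, polychromatic), 4 of ERY-IV (OrthoE, orthochromatic), 7 of ERY-V (Retic, the reticulocyte that has lost its nucleus) and 4 of ERY-VI (RBC, the red cell). The knockout series holds 3 GS-KO and 3 wild type (WT) libraries in each of 5 gates: BFU-E, CFU-E, ERY-I-II (ProE and BasoE), ERY-III-VI (labelled PolyE and OrthoE) and ERY-V-VI (Retic and RBC). The labels give no strain, age or Cre driver, do not say what deletes the gene or in which cells, and do not spell out GS, taken here as glutamine synthetase, the product of Glul. They also do not say that libraries of a group come from separate mice, so a p-value measures the spread between these libraries, which may be technical.

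Band 3, encoded by Slc4a1, is the anion exchanger of the red cell and its most abundant membrane protein. Ankyrin (Ank1) ties it to erythroid β-spectrin (Sptb), part of the spectrin mesh under the membrane. The ends of spectrin meet short actin filaments in the junctional complex. There the band 4.1 protein (Epb4.1, Epb41 in current nomenclature) strengthens the binding of spectrin to actin, dematin (Dmtn) bundles actin, tropomodulin (Tmod1) caps the slow-growing filament ends, adducin (β subunit, Add2) caps the fast-growing ends and recruits spectrin, and the scaffold Mpp1 (p55) links the band 4.1 protein to glycophorin C. In humans, variants of several of these genes cause hereditary spherocytosis or elliptocytosis, in which red cells lose their shape.

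Windows of 250 bases before the transcription start were examined to show the sequence in front of genes that share a rise during maturation. They come from RefSeq on GRCm38.p6, where 5 of the 8 genes, Sptb, Epb4.1, Tmod1, Add2 and Mpp1, had an entry. Both strands were searched for the GATA motif AGATAA and for CCNCNCCC, the core of the CACCC element that the erythroid factor KLF1 binds. The second motif overlaps GC boxes, since a run of G and C can match both. Capitals mark the matches, and of 3 start sites given for Epb4.1 the one farthest upstream is shown. The windows lie at chr12:76710548-76710797 on the minus strand for Sptb, chr4:132075314-132075563 on the minus strand for Epb4.1, chr4:46038972-46039221 on the plus strand for Tmod1, chr6:86028431-86028680 on the plus strand for Add2 and chrX:75131017-75131266 on the minus strand for Mpp1.
Sptb: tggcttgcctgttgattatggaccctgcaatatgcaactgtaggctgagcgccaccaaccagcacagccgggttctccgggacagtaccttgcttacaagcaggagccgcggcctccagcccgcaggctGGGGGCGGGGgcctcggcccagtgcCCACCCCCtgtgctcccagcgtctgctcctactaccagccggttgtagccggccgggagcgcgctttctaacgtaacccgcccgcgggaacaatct
Epb4.1: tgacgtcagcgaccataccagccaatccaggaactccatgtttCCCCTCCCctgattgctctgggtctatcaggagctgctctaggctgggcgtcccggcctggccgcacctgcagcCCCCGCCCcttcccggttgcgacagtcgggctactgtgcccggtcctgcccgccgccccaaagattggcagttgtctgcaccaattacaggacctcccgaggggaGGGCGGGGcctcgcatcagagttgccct
Tmod1: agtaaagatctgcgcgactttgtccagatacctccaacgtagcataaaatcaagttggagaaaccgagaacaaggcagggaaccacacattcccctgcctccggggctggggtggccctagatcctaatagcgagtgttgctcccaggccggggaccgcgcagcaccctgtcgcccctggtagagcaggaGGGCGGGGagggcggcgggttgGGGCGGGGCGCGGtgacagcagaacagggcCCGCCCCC
Add2: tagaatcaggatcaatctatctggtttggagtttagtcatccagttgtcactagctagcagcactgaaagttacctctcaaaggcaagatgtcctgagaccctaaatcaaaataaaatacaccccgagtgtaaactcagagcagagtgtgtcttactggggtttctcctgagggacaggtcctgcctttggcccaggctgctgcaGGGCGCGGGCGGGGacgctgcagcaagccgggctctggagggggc
Mpp1: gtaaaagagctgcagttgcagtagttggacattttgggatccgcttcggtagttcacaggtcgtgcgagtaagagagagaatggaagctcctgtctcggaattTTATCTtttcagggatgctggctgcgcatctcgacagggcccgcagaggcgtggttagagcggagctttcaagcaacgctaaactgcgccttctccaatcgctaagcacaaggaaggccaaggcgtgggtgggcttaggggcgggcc
Mpp1 alone of these 5 windows held the GATA motif, at bases -147 to -142 from the start and on the minus strand, and it held no CCNCNCCC. Sptb, Epb4.1, Tmod1 and Add2 held 3, 3, 4 and 2 matches of CCNCNCCC. Some of these matches overlap in Sptb, Tmod1 and Add2 and were counted separately. The windows of the other Epb4.1 start sites held 0 and 6 matches, and which start these cells use was not tested. Of 32851 promoter windows of the same length, 9.99% held the GATA motif and 45.9% the CACCC-type motif.

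Library totals were 1630863 to 11472763 counts in the 38 stage libraries and 3131142 to 15806844 counts in the 30 knockout and WT libraries. In the stage series 12 libraries (the first 3 replicates of ERY-V, ERY-I, CFU-E and BFU-E) held Y-linked transcripts and the other 26 held Xist transcripts, while all 30 knockout libraries held Y-linked ones. Replicates of a knockout group stood close together: between 2 of them the squared count differences were 1.26 to 5.96 times counting noise in the median gene, and between 2 of the stage libraries with Y-linked transcripts they were 1.40 to 2.79 times counting noise in BFU-E, CFU-E and ERY-I and 8.45 to 8.88 times in ERY-V. Over all libraries of a stage group they reached 140 times, in ERY-V. All 6 erythroid markers were detected in every group, and their summed level ran from 729 to 759 CPM (counts scaled to a library total of 1000000) in BFU-E up to 123147 to 134826 CPM in ERY-VI. Neutrophil markers (8 of 8 genes detected) summed to 13377 to 13783 CPM in the 3 ERY-I libraries with Y-linked transcripts, and to 0.409 to 1242 CPM in the other 4. In those 3 ERY-I libraries they exceeded the erythroid markers, which summed to 6494 to 6627 CPM, and macrophage markers summed to 1722 to 1777 CPM. The same order held in GS-KO BFU-E and in GS-KO CFU-E, where neutrophil markers summed to 4303 to 4377 CPM and erythroid markers to 1587 to 1605 CPM, so these libraries do not match an erythroid label alone. Glul, the gene taken as the target, averaged 98.8 ± 2.4 CPM in GS-KO BFU-E and 122 ± 2.9 CPM in WT BFU-E, and 23.3 ± 0.88 CPM in GS-KO ERY-V-VI and 254 ± 12.2 CPM in WT ERY-V-VI (SD, n = 3 each). Its log2 fold change in GS-KO over WT was -0.29 for the BFU-E gate and -1.26 for CFU-E, reached -2.77 for ERY-I-II and -3.22 for ERY-III-VI, and was -4.73 for ERY-V-VI (edgeR's quasi-likelihood test, highest adjusted p = 1.3e-05).

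The 8 genes together took 0.0947 ± 0.0012% of all counts in BFU-E (SD, n = 3), 0.213 ± 0.034% at CFU-E (n = 5) and 1.56 ± 0.50% at ERY-I (n = 7). The share was 3.73 ± 0.20% for ERY-II, 3.37 ± 0.13% for ERY-III and 3.91 ± 0.30% for ERY-IV (n = 4 each), then 5.36 ± 1.56% in ERY-V (n = 7) and 3.18 ± 0.62% in ERY-VI (n = 4). They did not come on together. Epb4.1, Ank1, Add2 and Mpp1 were already read in BFU-E, with means of 361, 291, 165 and 63.6 CPM. Sptb rose from 47.2 CPM there to 435 CPM in CFU-E. Slc4a1, Dmtn and Tmod1 had 0.164, 2.94 and 0.472% of their highest stage mean in CFU-E, and 32.0, 46.6 and 39.5% in ERY-I. Epb4.1 was still at 6.78% of its highest mean in ERY-I. At the other end, in CPM of the library total, Epb4.1 and Mpp1 stood in ERY-VI at 289% and 113% of their ERY-IV means, where Add2, Dmtn and Ank1 were low. The size of these falls depends on the scaling. In ERY-VI against ERY-V, TMM called none of Add2, Dmtn and Ank1 lower, while library totals called Mpp1 lower too (-0.69). In sorted bulk RNA, fewer cells of a kind and less RNA per cell cannot be told apart.

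**Figure D1:**
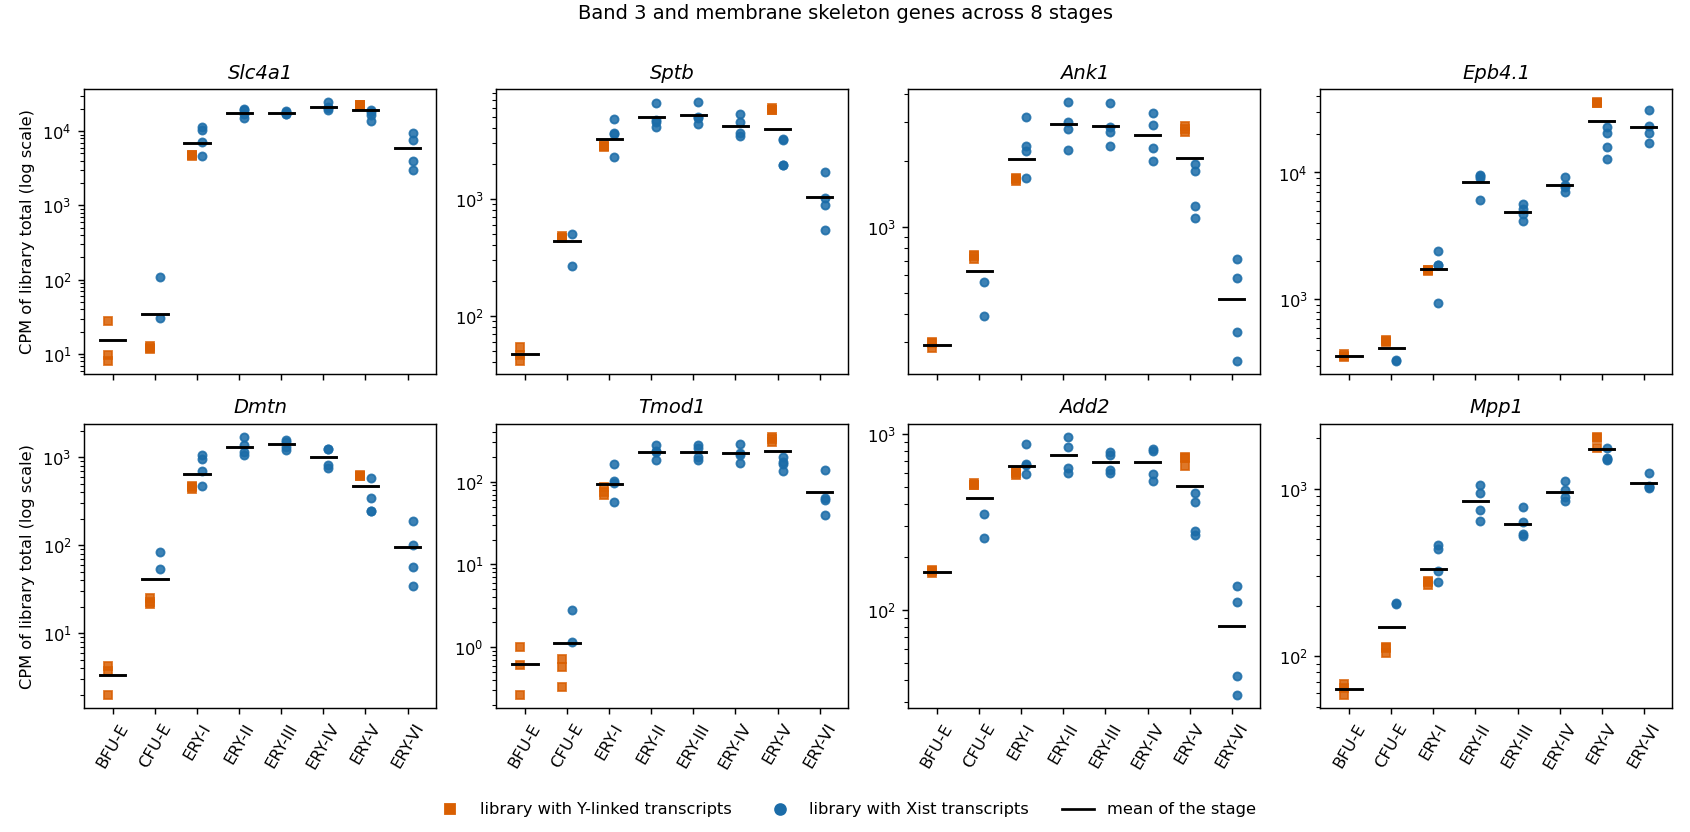
Level of each of the 8 genes in CPM of the library total (log scale, separate for each panel) in every library of the 8 stages, with squares for libraries with Y-linked transcripts, circles for libraries with Xist transcripts and a black line at the stage mean. Slc4a1 and Tmod1 reach at most 108 and 2.80 CPM in BFU-E and CFU-E and are at least 4669 and 57.1 CPM in ERY-I, while Epb4.1 and Mpp1 have their highest means in ERY-V.

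In the first step, CFU-E against BFU-E, 5 of the 7 genes that could be tested rose and none fell, where 18.2% of 10807 genes were called higher and 19.1% lower by edgeR's quasi-likelihood test at an adjusted p below 0.05. The β-spectrin gene Sptb had 463, 466, 480, 264 and 500 CPM in the 5 CFU-E libraries, against 46.3, 54.0 and 41.3 CPM in the 3 BFU-E libraries. All CFU-E values lay above all BFU-E values, and the log2 fold change was 3.34 ± 0.24 (SE, adjusted p = 4.1e-05). Dmtn had 21.4, 25.4, 22.7, 53.7 and 82.8 CPM in CFU-E, against 3.75, 4.2004 and 1.96 CPM in BFU-E. Its log2 fold change was 3.78 ± 0.64 (adjusted p = 0.0024), with the 2 CFU-E libraries with Xist transcripts above the other 3. Ank1, Add2 and Mpp1 rose less, by 1.24 ± 0.19, 1.50 ± 0.22 and 1.38 ± 0.32 on the log2 scale. Epb4.1 did not pass the test, at 0.32 ± 0.13 (adjusted p = 0.086), but was called higher with the libraries with Y-linked transcripts alone (0.45 ± 0.03, adjusted p = 2.7e-16) and without CFU-E replicate 4 or 5 (0.38 and 0.37). With those libraries alone the change of Dmtn was 2.84. Slc4a1 did not pass either, and its 12.7, 11.6, 12.2, 30.4 and 108 CPM in CFU-E overlapped the 9.68, 28.2 and 8.14 CPM of BFU-E. Tmod1 had 34 counts in all CFU-E libraries together and 14 in all BFU-E libraries, too few for the test. With the Y-linked triplicates summed to 1 library each, a choice made after seeing the data, 1 BFU-E library was left, whose spread is then taken to be like that of CFU-E. The log2 fold changes were 3.29 for Sptb (adjusted p = 0.045), 4.13 for Dmtn, 1.605 for Mpp1, 1.33 for Add2 and 1.11 for Ank1, of which that of Sptb alone passed.

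In ERY-I against CFU-E all 8 genes rose, where 25.4% of 10460 genes were called higher and 20.9% lower. Slc4a1 ran from 4669 to 11245 CPM with a median of 4806 CPM in the 7 ERY-I libraries, against the 11.6 to 108 CPM of CFU-E. No libraries overlapped, and the log2 fold change was 8.04 ± 0.91 (adjusted p = 4.6e-05). Without CFU-E replicate 5, the library at 108 CPM, it was 9.16, and with the libraries with Y-linked or with Xist transcripts alone it was 8.72 and 7.40. Tmod1 ran from 57.1 to 165 CPM with a median of 87.4 CPM in ERY-I, against 0.327, 0.714, 0.577, 1.16 and 2.80 CPM in CFU-E. The pointed-end cap was thus detected at more than a trace in the same gate as band 3, with a log2 fold change of 6.95 ± 0.60 (adjusted p = 1.0e-05), which was 7.58 without CFU-E replicate 5. Dmtn ran from 437 to 1076 CPM with a median of 474 CPM in ERY-I, a change of 4.44 ± 0.56 over CFU-E. Sptb followed with 3.35 ± 0.33, Epb4.1 with 2.503 ± 0.29 and Ank1 with 2.15 ± 0.31, and the smallest changes were those of Mpp1 (1.58 ± 0.33) and Add2 (1.05 ± 0.24, adjusted p = 0.0037). All 8 passed within each of the 2 library sets, where Add2 changed by 0.34 with Y-linked and 1.67 with Xist transcripts and Ank1 by 1.29 and 2.76. The median change of the 8 genes was 2.93, against 0.05 for all genes tested. The ERY-I libraries with Y-linked transcripts held the neutrophil transcripts given above. Without the ERY-I libraries over 1000 CPM of those markers, all 8 genes again passed the test, with Slc4a1 at 8.57 ± 0.99. The shares of all genes called in this fit and within the library sets are not given, so these calls are not read as a result about these genes.

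All 8 genes rose again in ERY-II against ERY-I, where 20.2% of 10327 genes were called higher and 25.1% lower. The 4 ERY-II libraries all held Xist transcripts, while 3 of the 7 ERY-I libraries held Y-linked ones and the neutrophil transcripts given above. Slc4a1 averaged 4753 CPM in those 3 and 8402 CPM in the other 4 ERY-I libraries. This step therefore also compares library sets in part. The largest change was that of Epb4.1, with 8999, 9424, 6034 and 9485 CPM in ERY-II, against a range of 933 to 2400 CPM and a median of 1696 CPM in ERY-I. The ranges stood apart, and the log2 fold change was 3.67 ± 0.37 (adjusted p = 4.9e-05). Mpp1, the partner of the band 4.1 protein, changed by 2.75 ± 0.35, Slc4a1 by 2.72 ± 0.48 and Tmod1 by 2.60 ± 0.34. Add2 had 838, 640, 959 and 600 CPM in ERY-II, against 584 to 871 CPM with a median of 613 CPM in ERY-I. These values overlapped, and its log2 fold change was 1.54 ± 0.25 with the usual TMM scaling but 0.21 when libraries were scaled by their totals (adjusted p = 0.26). Values also overlapped for Sptb, Ank1 and Dmtn. Their changes were 1.94, 1.82 and 2.30 with TMM, and 0.61, 0.51 and 1.01 with library totals, where Ank1 passed narrowly (adjusted p = 0.0495). Globin genes took a mean of 28.9% of the counts in ERY-II and 4.03% in ERY-I, and the median change of all genes was -0.35 with TMM and -1.68 with library totals, so changes are read relative to that median.

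In ERY-III against ERY-II edgeR called none of the 8 genes, where 0.185% of 7574 genes were called in either direction. Epb4.1 had 4686, 5164, 4170 and 5663 CPM in ERY-III, against 8999, 9424, 6034 and 9485 CPM in ERY-II, with no overlap, but its log2 fold change of -1.01 ± 0.33 missed the threshold (adjusted p = 0.25). It was the 1 gene of the 8 with an unadjusted p below 0.05, and DESeq2 called 1 gene. With the replicate number as a block, Epb4.1 (-0.93 ± 0.18, adjusted p = 0.0014) and Mpp1 (-0.60 ± 0.15, adjusted p = 0.012) were called lower, where 4.48% of genes were lower and 4.87% higher. The other 6 genes had log2 fold changes between -0.32 and -0.10 in the unblocked fit. In ERY-IV against ERY-III, Epb4.1 (1.30 ± 0.31, adjusted p = 0.018) and Mpp1 (1.25 ± 0.35, adjusted p = 0.039) rose, where 10.3% of 7238 genes were called higher and 3.29% lower. Epb4.1 had 7026, 9166, 7943 and 7722 CPM in ERY-IV, all above the ERY-III values. The block raised the count to 5, adding Slc4a1, Tmod1 and Add2 (14.6% of genes called higher and 7.94% lower). Both calls ended when replicate 1, 2 or 3 of ERY-III or replicate 3 or 4 of ERY-IV was left out, while the log2 fold changes stayed at 1.16 to 1.24 for Epb4.1 (adjusted p of 0.051 to 0.073) and at 1.01 to 1.24 for Mpp1. Slc4a1, the highest of the set in CPM, had 20884, 20693, 24429 and 19472 CPM in ERY-IV, against 16729, 16793, 18827 and 18339 CPM in ERY-III. The groups did not overlap, while the test gave 0.90 ± 0.33 (adjusted p = 0.10).

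In the reticulocyte gate Epb4.1 and Mpp1 rose further. In ERY-V against ERY-IV 3 genes were called higher and none lower, where 6.49% of 6990 genes were called higher and 2.33% lower. Epb4.1 ran from 12837 to 35726 CPM with a median of 22952 CPM in ERY-V, against 7026 to 9166 CPM in ERY-IV. All 7 ERY-V libraries lay above ERY-IV, with a log2 fold change of 2.5003 ± 0.38 (adjusted p = 0.0025). The 3 libraries with Y-linked transcripts held 35433 to 35726 CPM of Epb4.1, and the 4 with Xist transcripts 12837 to 22952 CPM, and with these 4 alone the log2 fold change was 2.65 ± 0.43 (adjusted p = 0.0057). Mpp1 ran from 1474 to 2035 CPM with a median of 1742 CPM in ERY-V, against 841, 896, 1110 and 977 CPM in ERY-IV. Its change was 1.84 ± 0.42 (adjusted p = 0.015), and it lost the call without replicate 1, 2 or 4 of ERY-IV (adjusted p of 0.051 to 0.078). Tmod1 was called at 0.97 ± 0.28 (adjusted p = 0.039) although its 135 to 348 CPM in ERY-V overlapped the 170 to 285 CPM of ERY-IV, and 7 of the 11 libraries ended this call when left out, with an adjusted p of up to 0.16. Scaled by library totals, Tmod1 changed by 0.09 (adjusted p = 0.88) and Dmtn by -1.11 (adjusted p = 0.048), where 0.758% of genes were called higher and 5.12% lower. Without the libraries over 1000 CPM of neutrophil markers, 5 genes were called higher, with Slc4a1 and Sptb added. The share of all genes called in that fit is not given, so the added calls are not read as a result about these genes.

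In ERY-VI against ERY-V the calls turned on the scaling. Epb4.1 alone was called higher (1.70 ± 0.30, adjusted p = 0.0031) with TMM, where 3.32% of 5030 genes were called higher and 4.51% lower. It had 20613, 31060, 17096 and 23177 CPM in ERY-VI, which overlap the 12837 to 35726 CPM of ERY-V. Scaled by library totals, Epb4.1 changed by -0.17 (adjusted p = 0.61) and the other 7 genes were called lower, where 44.0% of genes were, with 0.139% higher. The median change of all genes was -0.34 with TMM and -2.24 with library totals, and globin took a mean of 64.0% of the counts in ERY-VI and 36.3% in ERY-V. All 4 ERY-VI libraries held Xist transcripts, while 3 of the 7 ERY-V libraries held Y-linked ones. Without the ERY-V libraries over 1000 CPM of neutrophil markers, Epb4.1 kept its size (1.61 ± 0.38) and missed the threshold (adjusted p = 0.057). Slc4a1 had 3026, 3968, 7572 and 9469 CPM in ERY-VI, against 13857 to 22529 CPM with a median of 19004 CPM in ERY-V, and no libraries overlapped. Its log2 fold change was -0.11 ± 0.33 with TMM (adjusted p = 0.87) and -1.69 with library totals (adjusted p = 0.0014). Add2 had 32.7, 42.1, 111 and 137 CPM in ERY-VI, against 267 to 738 CPM with a median of 459 CPM in ERY-V. In CPM of library totals, the ERY-VI mean of Add2 was 11.8% of its ERY-IV mean, that of Dmtn 9.34%, that of Ank1 17.96%, that of Sptb 24.4%, that of Slc4a1 28.1% and that of Tmod1 33.7%, while Mpp1 stood at 113% and Epb4.1 at 289%. These percentages depend on the scaling. With TMM factors over the series, the ERY-IV and ERY-VI means were 34784 and 29288 for Slc4a1, 6549 and 5042 for Sptb, and 347 and 365 for Tmod1. They were 4027 and 2299 for Ank1, 1544 and 446 for Dmtn, and 1061 and 387 for Add2. Mpp1 had 1579 and 5646, and Epb4.1 had 12788 and 120902.

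The share of each gene in the summed counts of the 8 genes does not depend on library scaling. Shares add up to a whole, so when the share of a gene rises, the others fall together. The share of Epb4.1 was 36.5 to 39.4% in BFU-E, 15.4 to 21.7% at CFU-E and 8.54 to 13.8% at ERY-I. It was 15.3 to 27.2% for ERY-II, 12.5 to 16.9% for ERY-III and 18.3 to 22.0% for ERY-IV, then 35.5 to 51.5% in ERY-V and 62.3 to 82.7% in ERY-VI. It thus ran from high through low to high, and ERY-V and ERY-VI each lay apart from every stage before them except for an overlap of ERY-V with BFU-E. The share of Slc4a1 did the opposite, with 0.498 to 5.07% in CFU-E, 38.2 to 51.4% in ERY-I, 49.7 to 59.5% in ERY-IV and 10.6 to 27.6% in ERY-VI. Ank1 held 29.5 to 31.8% in BFU-E and 0.882 to 2.13% in ERY-VI. Counts of Epb4.1 per count of Ank1 were 1.24 ± 0.080 in BFU-E (SD, n = 3), 0.863 ± 0.18 in ERY-I (n = 7), 3.15 ± 0.66 in ERY-IV (n = 4), 12.6 ± 3.1 in ERY-V (n = 7) and 59.8 ± 33.8 in ERY-VI (n = 4).

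**Figure D2:**
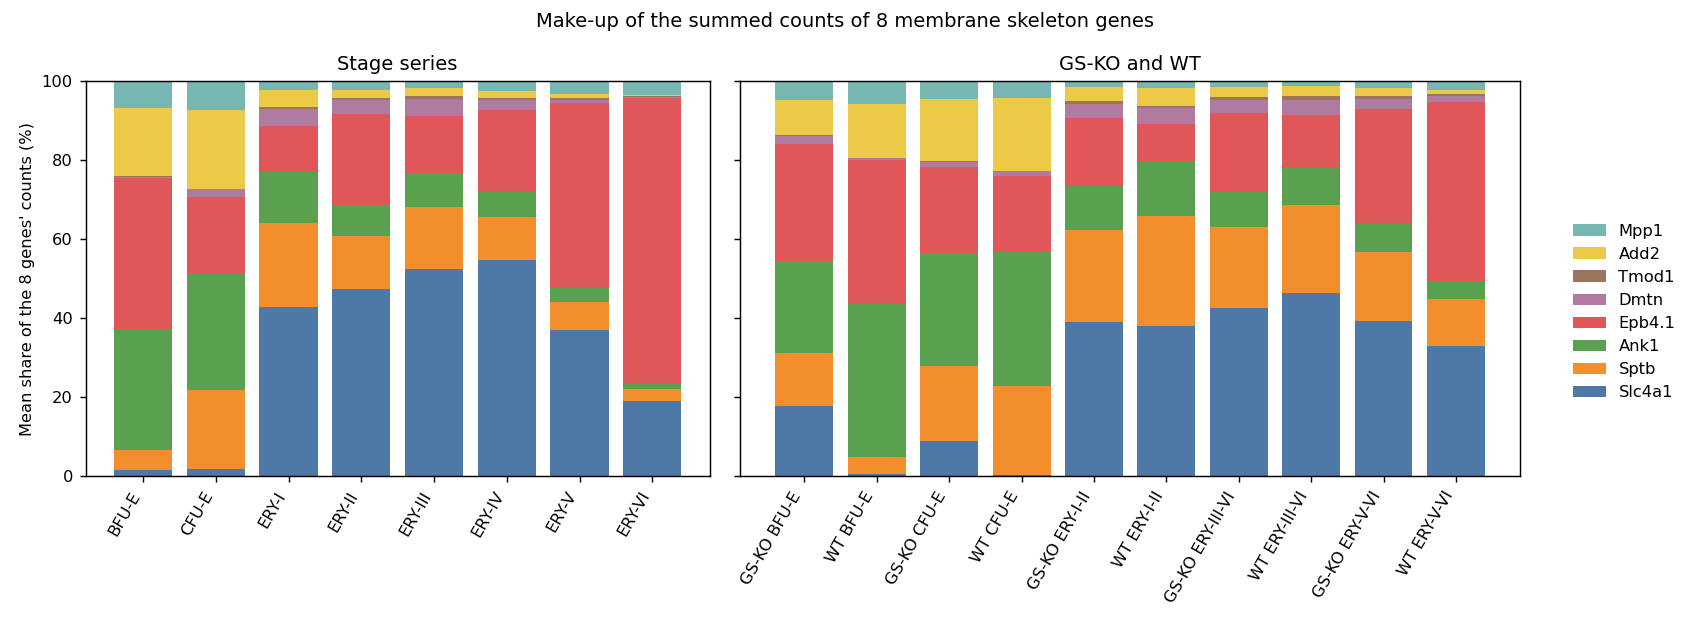
Mean share of each of the 8 genes in their summed counts (percent) in the 8 stages on the left, and in GS-KO and WT libraries of 5 gates on the right. The band of Epb4.1 widens to 35.5 to 51.5% of the counts in single ERY-V libraries and is narrower in GS-KO ERY-V-VI (28.4 to 28.8%) than in WT ERY-V-VI (45.3 to 45.9%).

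Levels of different genes were compared per kilobase of exon (GENCODE M21 exon unions on GRCm38). The union pools the exons of every annotated transcript (15942 bases for Epb4.1 and 4891 for Slc4a1). The order between genes therefore depends in part on the annotation. In BFU-E the order in CPM per kb was Epb4.1 (22.7 ± 0.79), Ank1 (21.5 ± 0.68), Add2 (16.3 ± 0.33), Mpp1 (11.9 ± 0.91), Sptb (3.89 ± 0.53), Slc4a1 (3.14 ± 2.3), Dmtn (0.337 ± 0.12) and Tmod1 (0.159 ± 0.095). The first and second of these differed by little more than their spread. By ERY-IV band 3 led, with 4369 ± 436 CPM per kb, before Epb4.1 (500 ± 55.9), Sptb (348 ± 68.9), Ank1 (193 ± 43.4), Mpp1 (179 ± 21.8), Dmtn (103 ± 26.6), Add2 (67.7 ± 13.8) and Tmod1 (56.4 ± 12.1). In ERY-VI Epb4.1 stood at 1442 ± 372 CPM per kb and Slc4a1 at 1229 ± 619 CPM per kb, within their spread, and Mpp1 came next with 201 ± 20.8. Within a gene, neighbouring gates in the order of levels mostly overlapped from ERY-II to ERY-V: for Slc4a1, ERY-IV, ERY-V, ERY-II and ERY-III followed each other with overlap, as did ERY-III, ERY-II, ERY-IV, ERY-V and ERY-I for Sptb. The stage with the highest mean CPM was ERY-II for Ank1 and Add2, ERY-III for Sptb and Dmtn, ERY-IV for Slc4a1 and ERY-V for Epb4.1, Tmod1 and Mpp1, and with TMM factors over the series it was the same for Tmod1 alone.

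Over the means of the 8 stages and the 5 WT gates, on a log2(CPM + 1) scale, Slc4a1 was most like Tmod1 (Pearson r = 0.993 over 13 groups), followed by Grina and E2f2 (0.991 and 0.989), among 8612 genes. Epb4.1 was most like Mkrn1, Fam220a and Adipor1 (0.996 each), and Mpp1 most like Specc1, Pla2g16 and Isg20 (0.994, 0.992 and 0.990). Sptb and Dmtn shared Rab3il1 and Cd24a among their 3 nearest genes (r of 0.987 to 0.991). Within the set the highest values were those of Slc4a1 with Tmod1, of Sptb with Dmtn (0.984) and of Epb4.1 with Mpp1 (0.974), and the lowest was that of Epb4.1 with Add2 (0.256). These groups share libraries, globin content and depth, so the values are descriptions.

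Of 15 partners at the membrane, 9 rose and 1 fell in CFU-E against BFU-E (18.2% and 19.1% of all genes), led by Epb4.2, the protein 4.2 gene that binds band 3 (3.01 ± 0.63), Rhd (2.73 ± 0.52) and Rhag (2.20 ± 0.17), the Rh proteins. In ERY-I against CFU-E 14 of 15 rose, where 25.4% of all genes did, with Epb4.2 at 3.98 ± 0.52. The median of the partners was 1.47 there, against 2.93 for the 8 genes and 0.05 for all genes. In ERY-VI against ERY-V 1 of 15 partners was called higher and none lower with TMM, where 3.32% of all genes were higher and 4.51% lower. Library totals gave none higher and 13 lower, where 0.139% of all genes were higher and 44.0% lower. In ERY-IV against ERY-III 5 of 15 partners rose and 2 fell, where 10.3% of all genes rose and 3.29% fell. In ERY-V against ERY-IV 1 of 15 rose and none fell, near the 6.49% and 2.33% of all genes. The medians of the partners in these steps were 0.65 and 0.16, against 0.57 and 0.76 for the 8 genes. Capzb, an actin capping subunit of many cell types, fell by 0.88 ± 0.25 in ERY-IV against ERY-III.

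Of the widely expressed relatives, 6 of the 12 tested fell and 1 rose in CFU-E against BFU-E, where 19.1% of all genes fell and 18.2% rose. In ERY-I against CFU-E 5 of 14 rose and 2 fell, where 25.4% of all genes rose and 20.9% fell. Their median in ERY-V against ERY-IV was 0.73. Sptan1 and Sptbn1, the spectrins of most other cells, fell by 3.10 ± 0.56 and 1.98 ± 0.43, in the step where Sptb rose by 3.34. Mpp2, a relative of Mpp1, rose by 2.03 ± 0.32. In ERY-I against CFU-E, Sptan1 and Sptbn1 were called higher (6.32 ± 1.54 and 3.80 ± 1.198), with 0.204 to 215 CPM of Sptan1 and 2.26 to 356 CPM of Sptbn1 among ERY-I libraries, and the neutrophil markers moved with them. Add1, the adducin partner subunit of Add2, rose in ERY-II against ERY-I (1.82 ± 0.26) and, with TMM, in ERY-IV against ERY-III (0.69 ± 0.19), where library totals gave 0.09 (adjusted p = 0.70).

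The WT libraries of the knockout series measured the same steps a second time, in coarser gates. Between WT CFU-E and WT BFU-E 6 of 7 tested genes rose, where 34.5% of genes were called higher and 36.0% lower. Sptb had 477, 503 and 482 CPM in WT CFU-E, against 39.2, 35.4 and 37.3 CPM in WT BFU-E (3.82 ± 0.04). Slc4a1 again did not pass (0.31 ± 0.23, adjusted p = 0.23), at 4.82, 3.80 and 5.28 CPM in WT CFU-E and 3.97, 2.91 and 5.10 CPM in WT BFU-E. All 8 rose in WT ERY-I-II against WT CFU-E (39.9% of genes called higher and 41.9% lower) and in WT ERY-III-VI against WT ERY-I-II (35.3% higher and 38.1% lower). Slc4a1 changed by 10.92 ± 0.04 in the first of these steps, to 6738, 6709 and 6682 CPM in WT ERY-I-II. All 8 were also called higher in WT ERY-V-VI against WT ERY-III-VI (18.4% higher and 12.9% lower), led by Epb4.1 (3.59 ± 0.02) and Mpp1 (2.54 ± 0.04). Scaled by library totals, Epb4.1, Mpp1 and Slc4a1 remained higher in that step (2.44, 1.39 and 0.14) and Sptb, Ank1, Dmtn, Tmod1 and Add2 were called lower, where 67.8% of genes were lower and 5.02% higher.

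The knockout comparison sets GS-KO libraries against WT libraries gate by gate, and the Glul transcript was only slightly lower in GS-KO BFU-E, as given above. In the BFU-E gate 6 of 8 genes were higher in GS-KO and none was lower, where 15.4% of 11356 genes were called higher and 8.59% lower. Slc4a1 had 261, 238 and 241 CPM in GS-KO BFU-E, against 3.97, 2.91 and 5.10 CPM in WT BFU-E. The groups stood far apart, with a log2 fold change of 5.93 ± 0.09 (adjusted p = 1.0e-46). Tmod1 had 8.11, 4.30 and 3.94 CPM in GS-KO BFU-E, against 0.636, 0.242 and 0.102 CPM in WT BFU-E, where it rested on 7 counts (4.198 ± 0.48, adjusted p = 2.8e-10, and 4.95 without WT BFU-E replicate 1). Dmtn (2.94 ± 0.17) and Sptb (2.34 ± 0.06) followed, so the 4 genes that were lowest in WT BFU-E showed the largest differences. Epb4.1 and Mpp1 differed by 0.46 ± 0.03 and 0.46 ± 0.07. Ank1 had 332, 313 and 321 CPM in GS-KO BFU-E, against 328, 325 and 325 CPM in WT BFU-E, and was not called (-0.0033 ± 0.032, adjusted p = 0.96), nor was Add2 (0.10 ± 0.05, adjusted p = 0.15).

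Markers of other cells moved with these differences. Neutrophil markers, all 8 detected in both groups, summed to 7008 to 7085 CPM in GS-KO BFU-E and 26.7 to 36.2 CPM in WT BFU-E, and macrophage markers (8 of 8) to 396 to 409 CPM in GS-KO BFU-E and 8.06 to 8.90 CPM in WT BFU-E. Erythroid markers (6 of 6) summed to 1159 to 1195 CPM in GS-KO BFU-E and 805 to 814 CPM in WT BFU-E, and progenitor markers (3 of 3) to 1110 to 1137 CPM in GS-KO BFU-E and 1243 to 1249 CPM in WT BFU-E. Globin genes took a mean of 0.0788% of counts in GS-KO BFU-E and 0.00125% in WT BFU-E. The higher neutrophil sums held in every gate, up to 13322 to 13495 CPM in GS-KO ERY-V-VI, against 608 to 653 CPM in WT ERY-V-VI. B lineage markers summed to 28.6 to 42.2 CPM in GS-KO BFU-E and 2.22 to 3.99985 CPM in WT BFU-E, and to 51.8 to 62.3 CPM in GS-KO ERY-V-VI and 2.54 to 6.08 CPM in WT ERY-V-VI. T lineage markers (4 of 5 in the table) summed to at most 4.05 CPM in GS-KO libraries and at most 0.599 CPM in WT libraries. Their part in the result was not tested. Sptan1 had 72.0 to 83.7 CPM in GS-KO BFU-E, against 8.61 to 11.8 CPM in WT BFU-E, and Sptbn1 and Sptan1 were among the 3 largest differences of the relatives in all 5 gates.

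**Figure D3:**
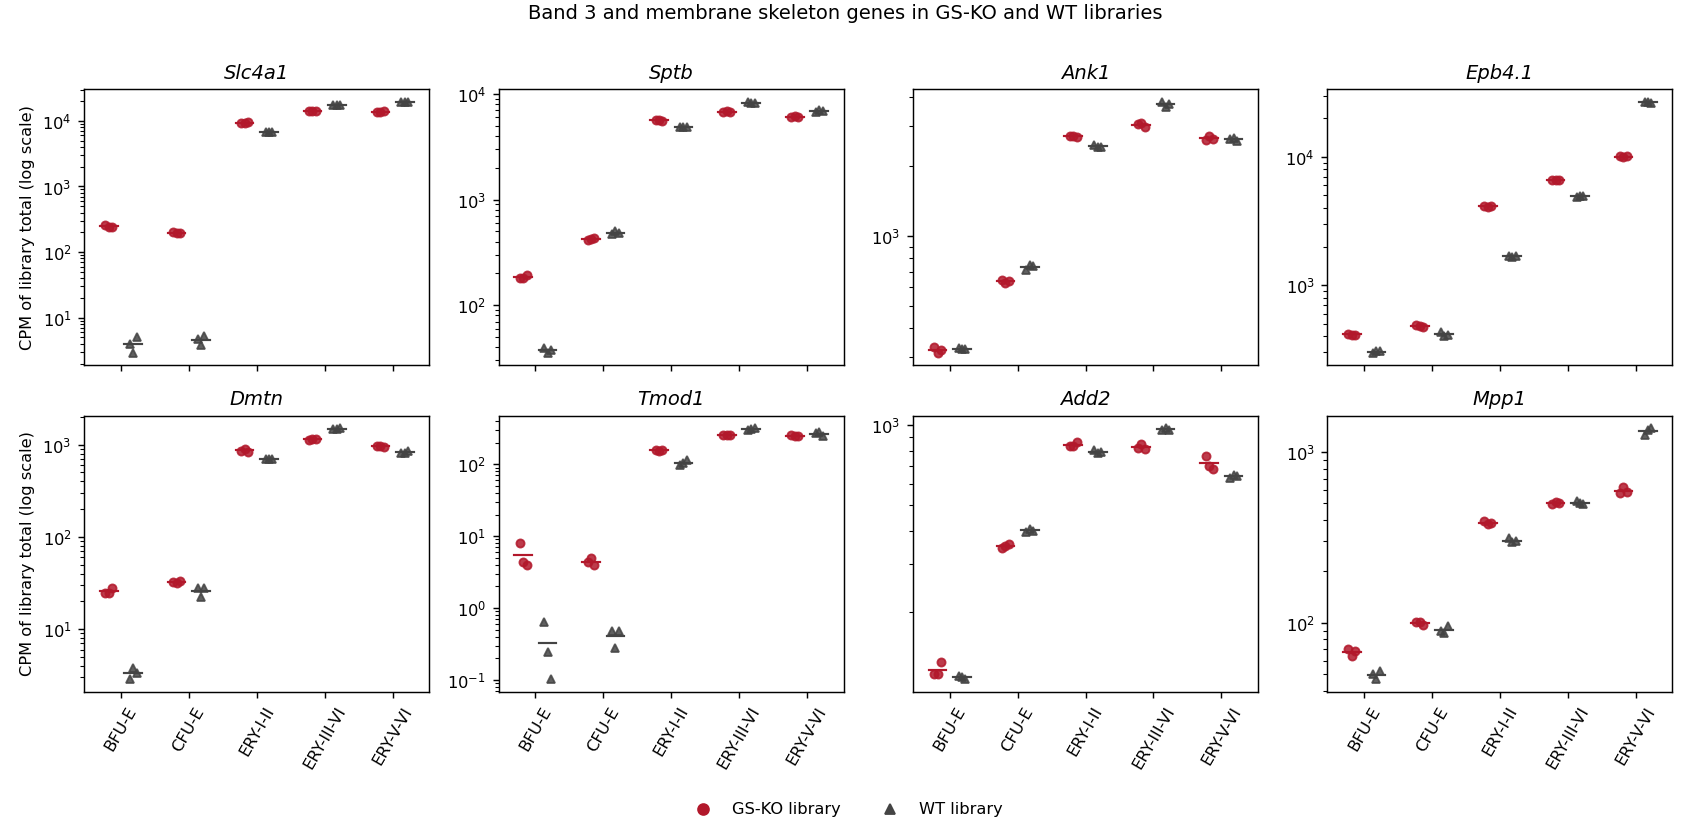
Level of each of the 8 genes in CPM of the library total (log scale, separate for each panel) in 3 GS-KO libraries (circles, left) and 3 WT libraries (triangles, right) of each of 5 gates, with a line at the group mean. Slc4a1 is at 194 to 261 CPM in the 6 GS-KO libraries of BFU-E and CFU-E and at 2.91 to 5.28 CPM in the 6 WT libraries, and the order turns in ERY-III-VI.

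In the CFU-E gate 4 genes were higher in GS-KO (17.9% of 10859 genes called higher) and 3 lower (11.5%). Slc4a1 had 202, 195 and 194 CPM in GS-KO CFU-E, against 4.82, 3.80 and 5.28 CPM in WT CFU-E (5.39 ± 0.08, adjusted p = 1.5e-31). Tmod1 had 4.32, 4.98 and 3.92 CPM in GS-KO CFU-E, against 0.482, 0.281 and 0.480 CPM in WT CFU-E, where it rested on 10 counts (3.33 ± 0.37). No libraries overlapped for either gene. Sptb, Ank1 and Add2, 3 of the 5 genes called higher in CFU-E against BFU-E of the stage series, were slightly lower, with log2 fold changes of -0.19 ± 0.03, -0.21 ± 0.03 and -0.20 ± 0.03, with Sptb at 419, 428 and 435 CPM in GS-KO CFU-E, against 477, 503 and 482 CPM in WT CFU-E. Dmtn (0.31 ± 0.09, adjusted p = 0.0078) lost its call without replicate 2 of WT CFU-E (adjusted p = 0.086), and Mpp1 was not called (adjusted p = 0.063).

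All 8 genes were higher in GS-KO in the ERY-I-II gate, where 22.9% of 9954 genes were called higher and 17.5% lower. The largest difference was that of Epb4.1, with 4160, 4080 and 4149 CPM in GS-KO ERY-I-II, against 1676, 1669 and 1695 CPM in WT ERY-I-II. The groups stood apart, with a log2 fold change of 1.42 ± 0.02 (adjusted p = 4.4e-68), and its share of the 8 genes' counts was 16.9 to 17.2% in GS-KO and 9.48 to 9.63% in WT. The differences of the other 7 genes ran from 0.21 ± 0.02 (Add2) to 0.69 ± 0.06 (Tmod1), with Slc4a1 at 0.61 ± 0.01. Erythroid markers summed to 18149 to 18262 CPM in GS-KO ERY-I-II and 10207 to 10269 CPM in WT ERY-I-II.

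The direction turned in the ERY-III-VI gate, where 7 genes were lower in GS-KO (24.5% of 9981 genes called lower) and Epb4.1 was higher (31.4%). Slc4a1 had 14315, 14204 and 14128 CPM in GS-KO ERY-III-VI, against 17420, 17756 and 17455 CPM in WT ERY-III-VI (-0.46 ± 0.02). Sptb, Ank1 and Tmod1 differed by a similar amount, with -0.45 ± 0.02, -0.45 ± 0.02 and -0.42 ± 0.04, and Dmtn by -0.54 ± 0.03. Epb4.1 had 6559, 6578 and 6654 CPM in GS-KO ERY-III-VI, against 4865, 4940 and 4928 CPM in WT ERY-III-VI (0.27 ± 0.02). Mpp1 had 500, 512 and 506 CPM in GS-KO ERY-III-VI, against 517, 502 and 498 CPM in WT ERY-III-VI, and its difference of -0.16 ± 0.03 with TMM was 0.00 with library totals (adjusted p = 0.99).

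In the most mature gate, ERY-V-VI, all 8 genes were lower in GS-KO with TMM, where 20.5% of 9403 genes were called lower and 22.4% higher. Epb4.1 had 10077, 9969 and 10121 CPM in GS-KO ERY-V-VI, against 26788, 26614 and 26490 CPM in WT ERY-V-VI. These groups were far apart, with a log2 fold change of -2.70 ± 0.01 (adjusted p = 2.3e-23). Mpp1 had 572, 622 and 583 CPM in GS-KO ERY-V-VI, against 1254, 1344 and 1380 CPM in WT ERY-V-VI (-2.46 ± 0.05). The 2 genes that were kept longest in the stage series were thus the 2 with the largest differences here. Slc4a1 (-1.78 ± 0.02), Sptb (-1.48 ± 0.02), Tmod1 (-1.39 ± 0.07), Ank1 (-1.28 ± 0.03), Add2 (-1.13 ± 0.05) and Dmtn (-1.07 ± 0.04) followed. With library totals, Epb4.1 (-1.40), Mpp1 (-1.16), Slc4a1 (-0.48) and Sptb (-0.18) stayed lower, where 3.84% of genes were called lower. Ank1 and Tmod1 were then not called, and Dmtn (0.23, adjusted p = 1.1e-04) and Add2 (0.17, adjusted p = 0.0068) were called higher, where 76.8% of genes were. The median of all genes was 0.15 with TMM and 1.44 with library totals, and globin took a mean of 7.76% of counts in GS-KO ERY-V-VI and 19.7% in WT ERY-V-VI. On the share of the 8 genes' counts, free of scaling, Epb4.1 held 28.4 to 28.8% in GS-KO ERY-V-VI and 45.3 to 45.9% in WT ERY-V-VI, and Mpp1 1.64 to 1.77% in GS-KO and 2.15 to 2.36% in WT. The other 6 genes had higher shares in GS-KO, with Slc4a1 at 39.1 to 39.7% in GS-KO and 32.9 to 33.3% in WT, and no shares overlapped between the genotypes. Shares add up to a whole, so the lower share of Epb4.1 raises the others together. In CPM, Slc4a1 was lower in GS-KO ERY-V-VI, with a mean of 13795 against 19330 in WT ERY-V-VI. Erythroid markers summed to 40909 to 42321 CPM in GS-KO ERY-V-VI and 95052 to 96489 CPM in WT ERY-V-VI.

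**Figure D4:**
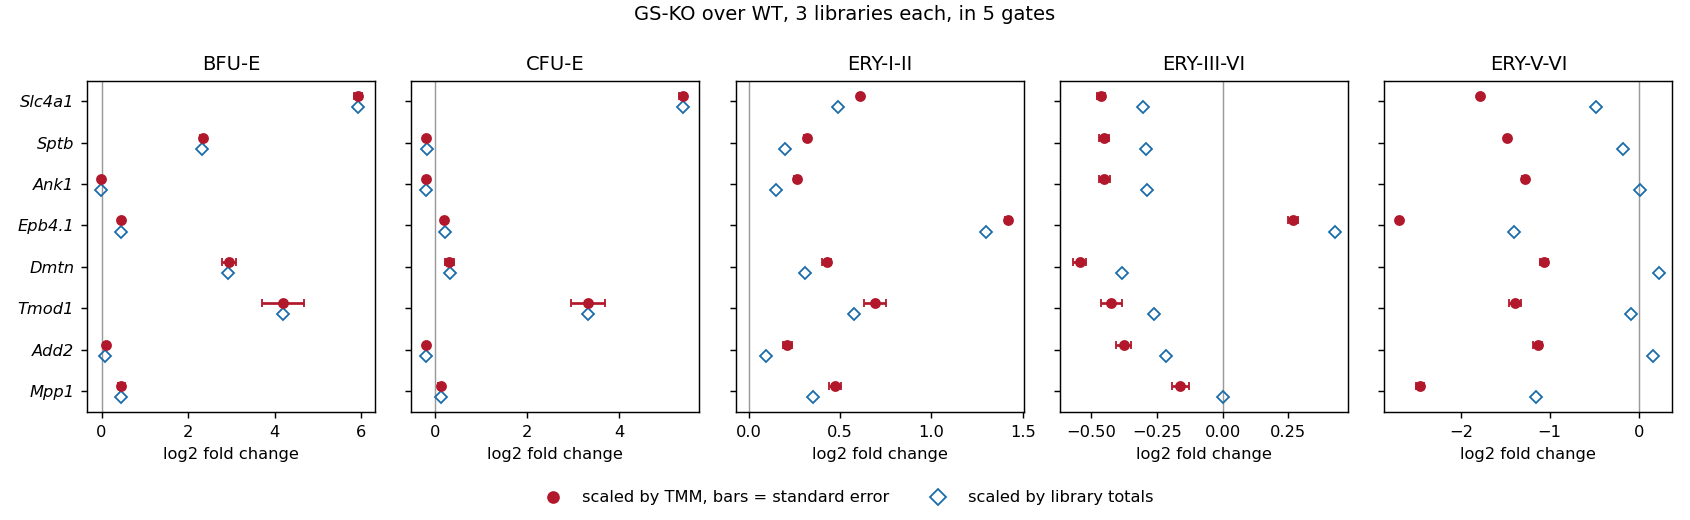
Log2 fold change of GS-KO over WT for the 8 genes in each of 5 gates (own axis for each gate, 3 libraries per genotype), with filled circles for TMM scaling (bars, standard error) and open diamonds for library totals. Slc4a1 lies at 5.93 and 5.39 in BFU-E and CFU-E and below 0 in the last 2 gates, and the choice of scaling moves every gene in ERY-V-VI.

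The difference between GS-KO and WT depended on the gate for all 8 genes in a joint test of the 5 gates over 30 libraries, where 61.2% of 12051 genes were called. The adjusted p ran from 9.3e-65 for Slc4a1 to 3.2e-29 for Tmod1. Among the partners, 12 of 15 were lower and 2 higher in GS-KO ERY-V-VI with TMM (20.5% and 22.4% of all genes), with Tpm1, a tropomyosin of the actin filaments, at -2.03 ± 0.07 and Capzb at 1.79 ± 0.22. Their median was -1.03, against -1.43 for the 8 genes. With library totals 5 partners were lower and 9 higher (3.84% and 76.8% of all genes), with Tpm1 at -0.73 and Capzb at 3.08. In GS-KO BFU-E 8 of 15 partners were higher, where 15.4% of all genes were, with Epb4.2 at 2.77 ± 0.18. Of the relatives, 6 of 13 were higher and none lower in GS-KO BFU-E (15.4% and 8.59% of all genes), and 6 were higher and 2 lower in GS-KO ERY-V-VI with TMM (22.4% and 20.5%). With library totals 11 of 13 were higher, near the 76.8% of all genes.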

How the data were processed

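Raw read counts per gene symbol, deposited by the authors in 1 table for the stage series and 1 for the knockout series, were analysed as deposited. Libraries were made with a stranded total RNA kit, per the labels' protocols. STAR 2.5.2b, HTSeq and the mm10 build are named in the submitters' processing notes, and no source used here gives the annotation or strand setting. CPM values were computed as counts scaled to library totals of 1000000. Each comparison was fitted alone with edgeR 4.0.16 (filterByExpr with minimum counts of 10 and 15, TMM scaling, quasi-likelihood F test, Benjamini-Hochberg adjustment over all genes tested, threshold 0.05), and SE is the log2 fold change divided by the root of F. The fits were tested on simulated data. Alternatives used DESeq2 1.42.0, limma 3.58.1, other scalings and filters, and fewer libraries.

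Genes named are the 8 genes, Glul, the 3 largest called changes of a partner list and a relatives list (and relatives beside a member), and the 3 genes most like each member. Some genes that this rule names are not reported here. The members and lists were chosen with earlier results of these data known. Alternatives with Y-linked triplicates summed, or without libraries over 1000 CPM of neutrophil markers, were chosen after seeing the data. Same-numbered libraries deviated together in ERY-I and CFU-E (correlations of 0.30 to 0.38), ERY-III and ERY-II (0.56 to 0.80) and ERY-IV and ERY-III (0.32 to 0.66). This pairing was read from the data, and the main fits did not use it. The replicate block was run as an alternative alone. In the other comparisons same-numbered libraries shared a number alone. Depth limits low genes, such as Tmod1 in progenitors.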

Additional observations from a re-analysis of the deposited data

Results flagged for a closer look

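A single library stood apart from the others of its group in 6 of 56 gene and group combinations tested on CPM, and in none on the share of the 8 genes' counts. Chance flags about 1 in 20. Slc4a1 was at 108.4 CPM in CFU-E replicate 5, against 11.6 to 30.4 CPM in the other CFU-E libraries. Sptb was at 264.4 CPM in CFU-E replicate 4, against 463 to 500 CPM in the others. In ERY-I replicate 6, Tmod1 was at 165 CPM and Add2 at 870.6 CPM, against 57.1 to 103 CPM and 584 to 676 CPM in the other ERY-I libraries. Epb4.1 was at 6034 CPM in ERY-II replicate 3, against 8999 to 9485 CPM in the others, and Mpp1 at 1242 CPM in ERY-VI replicate 4, against 1012 to 1033 CPM.

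The difference between GS-KO and WT varied over the 5 gates for each of the 8 genes by edgeR's joint interaction test. Of 12051 genes, 61.2% were called by the same test. The adjusted p was 9.304e-65 for Slc4a1, 1.378e-53 for Sptb, 1.673e-39 for Ank1, 4.672e-63 for Epb4.1, 1.545e-38 for Dmtn, 3.179e-29 for Tmod1, 5.537e-31 for Add2 and 4.219e-45 for Mpp1.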

How the results depend on the processing

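Over all comparisons and alternatives, 2181 gene-level values kept their side of the threshold, 42 passed it in addition and 39 no longer passed it. A further 12 changed sign with a call before or after the change. Changes of sign without a call count among the 2181. All 12 with a call came with library totals in place of TMM, where the median of all genes moves. They were, in ERY-VI against ERY-V, Epb4.1 (-0.17), Tmod1 (-1.67) and Mpp1 (-0.69), in GS-KO ERY-III-VI against WT, Mpp1 (0.0003), in GS-KO ERY-V-VI against WT, Ank1 (0.0155), Dmtn (0.23) and Add2 (0.165), and in WT ERY-V-VI against WT ERY-III-VI, Sptb (-0.27), Ank1 (-0.50), Dmtn (-0.86), Tmod1 (-0.20) and Add2 (-0.58). The number of the 8 genes called moved as follows, and the cause was not tested. The share of all genes called is given above for the main fits and for some alternatives alone. Where that share is not given, a count is not read as a result about these genes. In CFU-E against BFU-E it was 5, and 1 with the Y-linked triplicates summed, which leaves 1 BFU-E library. In ERY-III against ERY-II it was 0, 1 with DESeq2 and 2 with the replicate block. In ERY-IV against ERY-III it was 2, 6 with DESeq2, 1 with library totals, 5 with the replicate block, 1 with all groups in 1 fit, 0 without the library over 1000 CPM of neutrophil markers and 0 to 3 leaving out 1 library. In ERY-V against ERY-IV it was 3, 5 with DESeq2, 5 without such libraries and 1 to 3 leaving out 1 library. In ERY-VI against ERY-V it was 1, 3 with DESeq2, 2 with RLE factors, 7 with library totals, 2 with voom quality weights, 4 with all groups in 1 fit, 0 without such libraries and 1 to 2 leaving out 1 library. Leaving out 1 library gave 5 to 6 in CFU-E against BFU-E and 6 to 8 in GS-KO CFU-E against WT. The stage with the highest mean was unchanged for 1 of the 8 genes with TMM factors and for 4 without globin. Among comparisons whose numbers pair no libraries, the replicate block gave 6 calls in CFU-E against BFU-E and 2 in ERY-V against ERY-IV and changed no other call.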

Other observations

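Mpp1 per Dmtn, a pair of junctional complex genes, was 0.533 ± 0.087 in ERY-I (n = 7), 1.01 ± 0.36 in ERY-IV (n = 4), 4.24 ± 1.8 in ERY-V (n = 7) and 16.1 ± 10.1 in ERY-VI (n = 4). In the knockout series it was 0.615 ± 0.027 in GS-KO ERY-V-VI and 1.61 ± 0.041 in WT ERY-V-VI (n = 3 each), with no overlap.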
